A study of Oryza sativa Japonica Group with 14 samples.

Results

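At 18748 places in the rice genome a peak of H3K4me3 in the wild-type inflorescence meristem could be matched to a single peak in the same tissue of the jmj703 line, and these pairs are described here. Per the labels, WT and jmj703 plants were both of the DongJin variety, and the jmj703 plants carried a T-DNA insertion in JMJ703 (line 3A-00550). A pair is 1 peak of each list that overlapped the other by at least 1 bp and touched no further peak of the other list. The pairs took in 18748 of the 22183 WT IM peaks and 18748 of the 20595 jmj703 IM peaks, out of 130467 peaks in the 8 lists of the series. Pairing used the positions of listed peaks alone. Density and length still bore on the set, since WT IM peaks without a partner were weaker, and broken ones longer, than paired ones.

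The study compared histone marks in shoot growing points of field-grown rice by ChIP-seq, in which chromatin fragments bound by an antibody are sequenced. The inflorescence meristem (IM) was dissected by hand at the 10 to 12 leaf stage, when apices measured 1 to 2 mm, and WT and jmj703 IM were harvested on 21 to 24 June. Apices of about 400 plants were collected, so that each library stands for pooled whole apices and not for 1 cell type, and the mutant was a single insertion line. A pair of further H3K4me3 libraries served as reference points. The shoot apical meristem (SAM) of WT plants at the 6 to 7 leaf stage, under 0.5 mm, was one. IM of plants with RNA interference (RNAi) against SDG711, harvested on 17 to 19 June, was the other. H3K27me3 libraries of WT IM and jmj703 IM were used to sort the pairs. Each group had 1 library, so no test was possible, and every value below compares 2 libraries and not 2 genotypes. JMJ703 transcript was not analysed here, and the labels of the mutant library were therefore taken as given.

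H3K4me3 is the trimethylated form of lysine 4 of histone H3 and marks the 5′ ends of transcribed genes, where its breadth and height tend to follow transcription. JMJ703 is a rice JmjC-domain demethylase that removes methyl groups from this lysine. SDG711 is a rice methyltransferase of the Polycomb group that deposits H3K27me3, a mark of repressed genes. The IM is the growing point that forms the panicle branches after the SAM, which forms leaves, has turned to flowering. The question put by the comparison is where H3K4me3 rises when the demethylase is missing.

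The jmj703 IM library was the shallower by far, and this bears on every value below. It held 4869161 tags (sequenced reads after the authors' filtering), against 18452560 in WT IM, so WT IM was 3.79-fold deeper. SDG711 RNAi IM had 17941001 tags and WT SAM 13703302. Peaks of this mark took in 38.7% of the WT IM tags and 37.7% of the jmj703 IM tags. The peaks were called without a control library and at the same p cutoff, and the lowest tag count of a listed peak was 42 in WT IM and 18 in jmj703 IM. Relative to depth this put a higher floor under the jmj703 list. Density is given below as RPKM, the number of tags in a called peak per kb of its length and per 1000000 tags of the library, and RPM is the same without the division by length. The lowest density was 6.15 RPKM in the jmj703 IM list, against 3.72 in that of WT IM. How much depth, genotype and preparation each contributed cannot be told apart, since each genotype had 1 library.

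Most peaks were found in both libraries, and most that were not lay in the WT IM list. Of the WT IM peaks 84.5% were paired (95% Wilson interval 84.0 to 85.0%), 13.2% had no jmj703 peak, and 2.02% were broken into 2 or more jmj703 peaks. A further 59 WT IM peaks shared 1 jmj703 peak with a neighbour. Of the jmj703 IM peaks 91.0% were paired (90.6 to 91.4%), 926 had no WT IM peak, 884 were pieces of a broken WT IM peak and 37 joined WT IM peaks. These intervals, like those that follow, cover counting error only and leave out the spread between plants and preparations.

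The WT IM peaks without a partner were weak ones. Their median density was 5.71 RPKM and their median tag count 137, against 10.2 and 304 for paired WT IM peaks. The jmj703 IM library held 0.264 tags for each tag of WT IM, and its part in these absences was not tested. The exceptions with the smallest p were at or near the density of paired peaks. Chromosome 12 from 12780403 to 12781767 held 284 tags at 11.3 RPKM, and chromosome 1 from 32590719 to 32592134 held 349 tags at 13.4. Chromosome 11 from 18780614 to 18782204 and chromosome 10 from 12900614 to 12902181 had densities of 9.30 and 9.82. WT SAM listed an H3K4me3 peak at all 4 places and so did SDG711 RNAi IM, while H3K27me3 was listed at none in WT IM or jmj703 IM, so jmj703 IM was the H3K4me3 list in which each was missing. In the other direction, the jmj703 IM peak with the smallest p among those without a WT IM partner lay on chromosome 7 from 3339305 to 3340676. It held 165 tags at 24.7 RPKM, and none of the other 5 lists used had a peak there. The next, on chromosome 10 from 12299768 to 12300714, held 116 tags at 25.2 and had an SDG711 RNAi IM peak of density 11.2.

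Paired peaks were denser and shorter in jmj703 IM, and the median number of tags in a peak, scaled to depth, was nearly equal. Median density over the pairs was 10.2 RPKM in WT IM and 12.9 RPKM in jmj703 IM. The median ratio within a pair, jmj703 over WT, was 0.37 on the log2 scale (95% interval of the median 0.36 to 0.37), or 1.29-fold. The middle 50% of pairs lay between 0.17 and 0.58, and the whole range ran from −0.71 to 2.38. The density was higher in jmj703 IM at 16861 of 18748 pairs (89.9%, interval 89.5 to 90.4%).

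The difference in length had the opposite sign and nearly the same size. Median length was 1601 bp in WT IM and 1245 bp in jmj703 IM. The median log2 ratio of length was −0.33 (−0.34 to −0.33), or 0.794-fold, with quartiles of −0.53 and −0.18. The jmj703 peak was shorter at 17639 pairs (94.1%, interval 93.7 to 94.4%), longer at 1099 and of equal length at 10. When only the tags in each called peak were counted, as RPM, the median ratio was 0.01 (1.01-fold), with quartiles of −0.26 and 0.27, and 51.0% of pairs were higher in jmj703 IM. Dividing both tag counts by 1 common length, that of the union of both peaks, gives this same ratio, so the rise in median density ended under that choice. Tags of jmj703 IM that fell outside its shorter called peak are not counted in that ratio, since the lists hold tags of called peaks only. Among pairs whose lengths differed by at most 25% of the shorter peak the median log2 density ratio was 0.38. Called length and tags went together, however. The median log2 ratio of RPM was 0.70 at pairs with a longer jmj703 peak and −0.02 at the rest. Choosing pairs of like length thus also chooses by jmj703 IM tags, and whether the rise is independent of length was not tested.

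**Figure D1:**
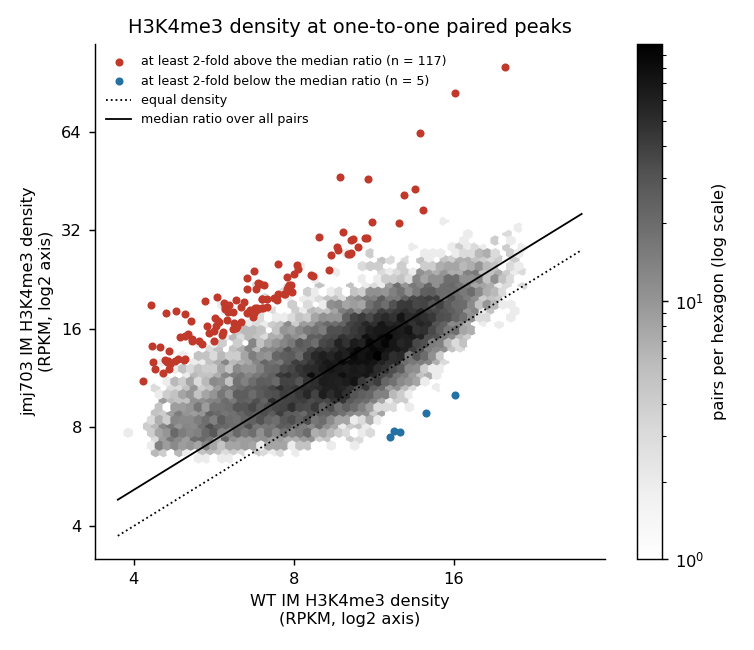
Density of H3K4me3 at each pair in WT IM (horizontal) and jmj703 IM (vertical), in RPKM on log2 axes, with grey hexagons for the number of pairs. Most pairs lie above the dotted line of equal density and around the solid line of the median ratio, 1.29-fold. The 117 red points lie at least 2-fold above that median and the 5 blue points at least 2-fold below it.

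The shorter jmj703 peaks sat within the WT peaks. At 14628 pairs (78.0%) the jmj703 peak lay wholly inside its WT partner, and at 344 (1.83%) it reached beyond it on both sides. The left edge lay a median of 164 bp further in and the right edge 146 bp. Summits, the position of highest pile-up in each peak, were a median of 81 bp apart, within 100 bp at 56.8% of pairs and within 200 bp at 77.7%. With sonicated fragments of 200 to 750 bp, this places most summits within a fragment length of each other.

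The order of the peaks was partly shared. Spearman's rho over the 18748 pairs was 0.73 for density, 0.73 for length, 0.72 for the deposited fold enrichment and 0.81 for tags, given as descriptions, since every pair comes from the same 2 libraries. Rank was taken as the percentile of density within each whole list, 100 being the densest. The absolute change of rank had a median of 12.6 points, with quartiles of 5.33 and 23.3, and the signed change ran from −77.6 to 90.3 points. Rank rose by at least 25 points at 1566 pairs (8.35%) and fell by at least 25 at 2571 (13.7%). The whole lists differ in length and in their unpaired weak peaks, and the excess of falls depended on this. When rank was taken among the pairs alone, 2140 rose and 2007 fell, and with the WT IM list cut to the length of the jmj703 IM list 1893 rose and 2054 fell. Between WT IM and SDG711 RNAi IM, which were of similar depth and share the same WT IM library with this comparison, the median absolute change was 6.23 points. Of those 21121 pairs 416 rose (1.97%) and 248 fell (1.17%) by at least 25 points.

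At the top of the lists the same difference was seen. Of the 2184 paired WT IM peaks in the densest 10% of their list, 1138 were also in the densest 10% of the jmj703 IM list (52.1%, interval 50.01 to 54.2%). Read from the other side, these were 57.1% of the 1994 paired jmj703 IM peaks in that class. The longest 10% were shared more often, with 1329 pairs, or 71.6% of the WT IM and 66.8% of the jmj703 IM members. The corresponding shares with SDG711 RNAi IM were 75.5% of 2198 WT IM peaks by density and 80% of 2120 by length.

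**Figure D2:**
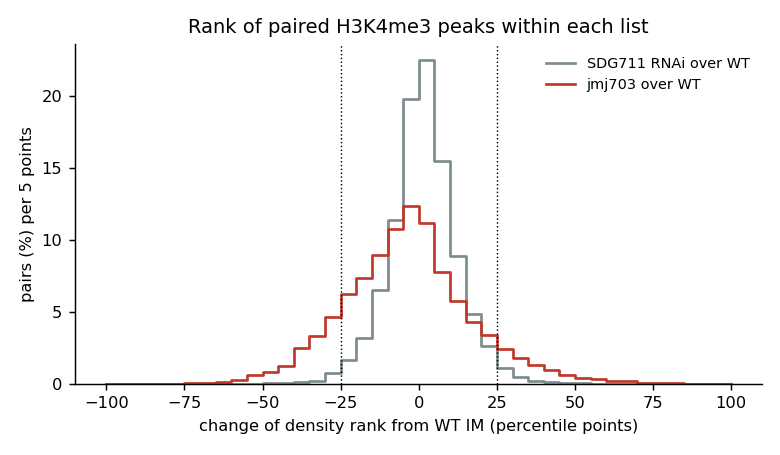
Change of density rank from WT IM, in percentile points, for jmj703 IM (red) and SDG711 RNAi IM (grey), as the percentage of pairs per 5 points. The red distribution is the wider, with 8.35% of pairs at or beyond 25 points upwards and 13.7% downwards, against 1.97% and 1.17% in grey, although with rank taken among the pairs alone more of the red pairs rose (2140) than fell (2007). Both share the WT IM library, and jmj703 IM was the shallowest.

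The rise in density was larger at weak peaks. Pairs were put in 5 classes of equal size by their WT IM density. The median log2 density ratio was 0.60 in the weakest class and then 0.40, 0.32, 0.29 and 0.26 in the densest. Shortening was less at the densest peaks, with a median log2 length ratio of −0.40 in each of the weakest 2 classes and −0.24 in the densest. The log2 ratio of RPM was 0.17 in the weakest class and between −0.06 and 0.01 in the others.

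WT IM density is the denominator of the ratio, and the higher floor of the jmj703 list keeps out weak pairs with a low ratio, so a fall along these classes is partly built in. The SDG711 RNAi IM ratio to the same WT IM peaks fell along them too, from 0.11 to −0.10, a span of lesser size around a median of −0.01, and its length ratio was positive throughout. When SDG711 RNAi IM took the place of WT IM as the denominator, jmj703 IM was again denser and shorter, with medians of 0.39 and −0.43 over 18933 pairs. Density ratios there ran from 0.53 in the weakest class to 0.33 in the densest. Higher density and shorter length in jmj703 IM thus held against either of the deeper IM libraries. Both comparisons used the same shallow jmj703 IM library, however. The median log2 ratio of RPM, jmj703 IM over SDG711 RNAi IM, was −0.07 (−0.08 to −0.06), so tags scaled to depth were not higher there.

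**Figure D3:**
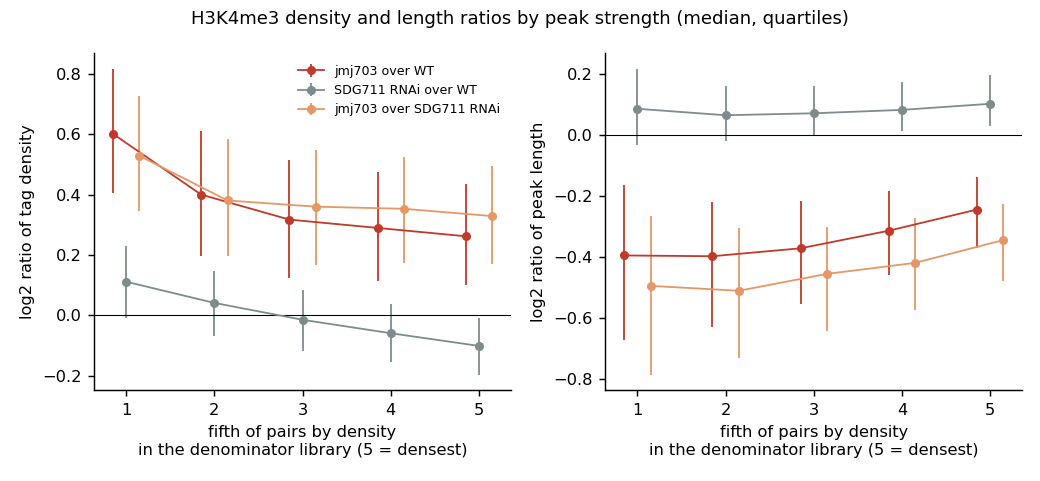
Median log2 ratio of density (left) and of length (right) in 5 classes of pairs ordered by density in the denominator library, with bars from the lower to the upper quartile. jmj703 IM over WT IM (red) falls from 0.60 to 0.26 in density and stays below 0 in length. jmj703 IM over SDG711 RNAi IM (orange) has like values, and SDG711 RNAi IM over WT IM (grey) lies near 0, from 0.11 to −0.10 in density.

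Chromosomes differed little. The chromosome medians of the log2 density ratio lay between 0.34 on chromosome 3 and 0.40 on chromosome 11. Pairs within 1 Mb of the outermost listed peaks of a chromosome had a median of 0.39, and the others 0.36. The ratio was higher where peaks were sparse. In 5 classes by the number of WT IM peaks in the surrounding 1 Mb, the median fell from 0.42 (0.40 to 0.43) in the sparsest to 0.34 (0.33 to 0.35) in the most crowded. WT IM density rose along these classes, from a median of 9.28 to 10.6 RPKM, and its part in this fall was not tested. The ratios of neighbouring pairs were nearly unrelated, with a Spearman's rho of 0.06 over 18736 couples, given as a description.

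Pairs that also lay in an H3K27me3 peak of the jmj703 IM library had the higher H3K4me3 ratios. An H3K27me3 peak was counted when it overlapped either peak of the pair by at least 1 bp. H3K27me3 covered neither genotype at 15473 pairs, WT IM alone at 719, jmj703 IM alone at 964 and both at 1592. The median log2 density ratio of H3K4me3 was 0.35 where neither had H3K27me3 and 0.30 with WT IM alone. It was 0.44 with jmj703 IM alone and 0.45 with both. The median log2 ratio of H3K4me3 RPM was 0.14 in each of the latter 2 classes, against −0.01 and −0.06 in the former 2.

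These classes differ in WT IM density, so they were also read within the 5 density classes. In the densest, the median ratio was 0.23 over 2241 pairs with neither, 0.22 over 391 with WT IM alone, 0.34 (0.31 to 0.39) over 481 with jmj703 IM alone and 0.36 (0.34 to 0.39) over 637 with both. In the middle class, the values were 0.31, 0.26, 0.52 and 0.46. In the weakest they lay closer together, at 0.59, 0.62, 0.67 and 0.62. The SDG711 RNAi IM ratios to WT IM at the same 4 classes of pairs were −0.01, −0.07, −0.03 and −0.03 over all densities. In the densest class they were −0.11, −0.12, −0.07 and −0.09, so pairs with jmj703 IM H3K27me3 were the higher there too. In the weakest they were 0.12, 0.07, 0.07 and 0.08, where pairs with neither were the highest. Overlap joins separate immunoprecipitations of pooled apices and does not place both marks on the same chromatin.

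Falls in rank were spread unevenly over the same classes. How far a rank can move depends on WT IM density, so the shares are given within its classes. In the densest class, rank fell by at least 25 points at 18.3% of pairs with no H3K27me3 and at 10.7% with WT IM alone. It fell at 5.61% with jmj703 IM alone and at 2.20% with both. In the fourth class the order was not the same, with 23.5% for neither, 20.2% for WT IM alone, 7.95% for jmj703 IM alone and 23.5% for both. In the middle class the shares were 21.8% for neither, 24.1% for WT IM alone, 6.74% for jmj703 IM alone and 15.1% for both. In the second class they were 11.3%, 18.5%, 11.8% and 7.08%, and in the weakest at most 0.752%. Pairs with jmj703 IM H3K27me3 alone thus had fewer falls than pairs with none from the middle class upwards. Those with both had fewer in the second, middle and densest classes but not in the fourth.

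Pairs at which WT SAM had no H3K4me3 peak, and which thus carried the mark in IM lists only, also had higher ratios. There were 1526 of them (8.14%), with a median log2 density ratio of 0.65 against 0.34 at the other 17222. They were weak peaks, with a median WT IM density of 6.29 against 10.4. Within the weakest density class the ratio was 0.70 (0.67 to 0.71) over 1184 pairs without a WT SAM peak and 0.55 over 2566 with one. In the next class it was 0.49 over 251 against 0.39. Median WT IM density still differed within these classes, at 5.86 against 6.65 and at 8.27 against 8.60, so density was not fully matched. The densest 2 classes held 19 and 5 pairs without a WT SAM peak, too few for a stable median.

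Rises in rank differed less between pairs of like density than over all pairs. Of the pairs without a WT SAM peak 19.4% rose by at least 25 points, against 7.37% of the others, but most of the former were weak peaks with more room to rise than to fall. Within the weakest density class the shares that rose were 19.2% and 15.1%, and within the next 22.3% and 14.7%. SDG711 RNAi IM was likewise denser than WT IM at the pairs without a WT SAM peak, with a median log2 ratio of 0.14 against −0.03, and of 0.17 against 0.09 within the weakest class. Neither the depth of the WT SAM library nor the stage of the apices was tested as a source of this division.

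**Figure D4:**
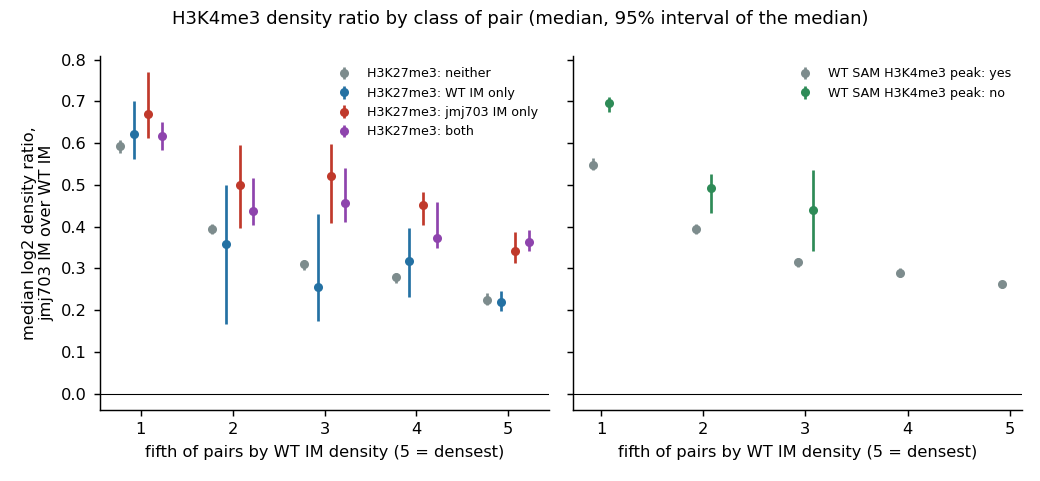
Median log2 density ratio of H3K4me3, jmj703 IM over WT IM, in 5 classes by WT IM density, with 95% intervals of the median, for classes of at least 20 pairs. On the left, pairs under H3K27me3 of jmj703 IM (red, purple) have higher medians than those with none (grey) in each class. In the densest class these are 0.34 and 0.36 against 0.23. Both intervals overlap that of grey in the second class, and the purple one also does in the weakest. On the right, pairs without a WT SAM peak (green) lie above the others in the 3 classes plotted.

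Single pairs that stood apart were few. A density ratio at least 2-fold above the median ratio of all pairs was found at 117 pairs (0.624%) and one at least 2-fold below it at 5 (0.0267%). With SDG711 RNAi IM the counts over 21121 pairs were 2 (0.00947%) and 0. The last pair inside the upper limit had a log2 ratio of 1.37 and the first outside 1.36, so the limit cuts through a continuous range. At the lower limit these were −0.67 and −0.60.

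The 117 raised pairs were mostly weak in WT IM. Their median density was 6.62 in WT IM and 18.7 in jmj703 IM, and the median rank went from 18.9 to 90.1. Length hardly differed, at 1211 and 1185 bp, while the median deposited fold enrichment was 5.76 and 10.8. The RPM ratio had a median of 2.73-fold and was 1.16-fold at the lowest. Of the 117, 80 were in the weakest WT IM density class (2.13% of its 3750 pairs) and 6 in the densest (0.160%). At 45 of them WT SAM had no peak (38.5%). Within the weakest density class this held for 42 of the 80 raised pairs (52.5%), against 31.6% of all 3750 pairs of that class. SDG711 RNAi IM lacked a peak at 1 of them, and its median log2 ratio to WT IM was 0.25 at the 114 where it had a single partner, against −0.02 over all pairs. In the weakest density class, which holds 80 of the 117, that ratio was 0.12. The raised pairs were picked by a ratio with the same WT IM denominator, so the 0.25 is not independent of the choice. H3K27me3 was not more frequent among the raised pairs, since 100 of the 117 lay outside it in both genotypes, or 0.646% of that class against 0.628% of the pairs with both. The latter share rests on 10 raised pairs, and 5 of these lay at the chromosome starts that are set apart below.

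The 5 highest ratios all lay at the very start of a chromosome as the files number it, and these need to be read apart from the rest. On chromosome 10 from 995 to 1882 the density was 16.1 RPKM in WT IM and 84.1 in jmj703 IM, a ratio of 5.22 (counting interval 4.41 to 6.18). WT SAM had 24.8 there and SDG711 RNAi IM 23.1. On chromosome 4 from 854 to 2334 it was 19.98 in WT IM and 100.7 in jmj703 IM, the highest density of that list. Chromosome 5 from 1 to 781 went from 9.78 to 46.6, chromosome 8 from 996 to 1684 from 13.8 to 63.5, and chromosome 2 from 1 to 814 from 11.1 to 45.9.

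The raw tag counts at these 5 places hardly followed the depth of the library. On chromosome 10 they were 264 in WT IM and 299 in jmj703 IM, with 193 in WT SAM and 240 in SDG711 RNAi IM. On chromosome 4 they were 546 and 629, with 498 in WT SAM and 507 in SDG711 RNAi IM. An RPM ratio between 4.25 and 4.46 thus arose from raw counts that were nearly the same. H3K27me3 peaks were listed at all 5 in both genotypes, with densities in jmj703 IM 1.80 to 2.24 times those of WT IM at 4 of them and 0.923 times on chromosome 10, at 14337383 and 22887617 tags. Peaks of both marks were thus listed at the same 5 places, and what their position at chromosome ends contributes to the H3K4me3 values was not tested. At most 3 tags were kept at a position in WT IM and SDG711 RNAi IM and 2 in WT SAM and jmj703 IM. Whether this limit, or tags of repeated sequence gathered there, set the counts was not tested, as the lists hold no tag positions. Dividing counts that do not follow depth by the depth gives the shallowest library the highest density, so these 5 ratios cannot be read like those of other pairs. The other 3 pairs in the first 5 kb of a chromosome, on chromosomes 1, 11 and 12, had density ratios of 1.24, 1.35 and 1.44.

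Away from the chromosome starts 112 raised pairs remained, with a median density of 6.53 in WT IM and 18.6 in jmj703 IM. The 6 highest of these were chosen after their values were seen. Chromosome 7 from 27227798 to 27229056 held 152 tags in WT IM and 94 in jmj703 IM, which is 6.54 and 22.9 RPKM, a ratio of 3.49 (2.67 to 4.55). WT SAM had 5.78 there and SDG711 RNAi IM 9.96. The jmj703 IM value was above the other 3, which lay within 5.78 to 9.96.

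Chromosome 6 from 17396932 to 17398084 went from 5.73 to 20.002, also a ratio of 3.49, with 7.45 in SDG711 RNAi IM and no WT SAM peak. Chromosome 3 from 7993159 to 7994705 likewise had no WT SAM peak and went from 7.46 to 25.3. The densest of the 6 was on chromosome 1 from 29253547 to 29255223, with 276 tags in WT IM and 234 in jmj703 IM, or 8.92 and 30.6 RPKM. The ratio was 3.25 for chromosome 2 from 29049285 to 29050587 and 3.23 for chromosome 9 from 1440320 to 1441696. None of the 6 had an H3K27me3 peak in either genotype, and jmj703 IM was the highest of the H3K4me3 libraries at each.

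**Figure D5:**
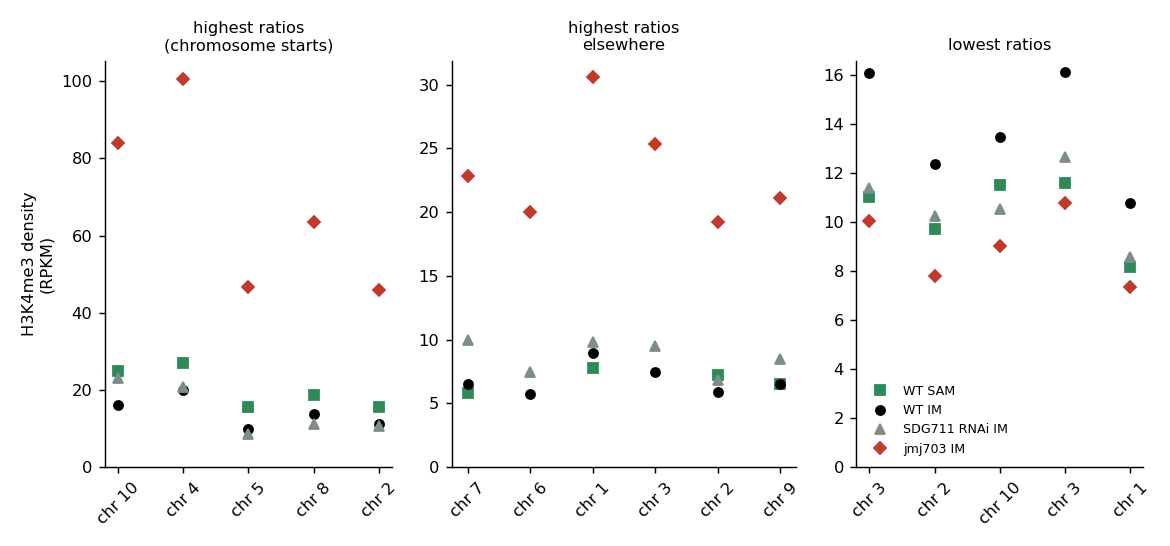
H3K4me3 density in RPKM in the 4 H3K4me3 libraries at the named pairs, with 1 column of points per pair and axes from 0 that differ in range. At the 5 chromosome starts and the 6 other raised pairs jmj703 IM (red) is the highest, up to 100.7 and 30.6. At the 5 lowest ratios WT IM (black) is the highest and SDG711 RNAi IM (grey) and WT SAM (green) lie between it and jmj703 IM. A missing green point means that WT SAM listed no peak.

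The lowest ratios were at peaks that stood high in WT IM. Among pairs with p at most 1e-10 in both lists and at least 50% of each peak inside the other, the lowest was on chromosome 3 from 33459687 to 33461242. It held 462 tags in WT IM and 63 in jmj703 IM, which is 16.1 and 10.0 RPKM, a ratio of 0.623 (0.471 to 0.812). Its rank went from 96.4 to 23.4. SDG711 RNAi IM had 11.4 and WT SAM 11.0, so WT IM was the library that stood apart there.

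At the next 4, WT IM was again the highest and jmj703 IM the lowest of the H3K4me3 libraries. Chromosome 2 from 12531643 to 12533537 went from 12.4 to 7.79, with 10.2 in SDG711 RNAi IM, and chromosome 10 from 3849500 to 3851916 from 13.5 to 9.01, with 10.5. Chromosome 3 from 6544635 to 6546620 went from 16.1 to 10.8, with 12.6, and chromosome 1 from 39252618 to 39254679 from 10.8 to 7.33, with 8.57. SDG711 RNAi IM lay between WT IM and jmj703 IM at all 5. None had an H3K27me3 peak in WT IM or jmj703 IM. Over the 5 pairs past the lower limit, which are partly other pairs, the median density was 12.7 in WT IM and 7.79 in jmj703 IM.

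Lengthening was rare, and it went with more tags. The jmj703 peak was at least 2 times as long at 4 pairs (0.0213%) and at most 0.5 times as long at 833 (4.44%). The 1099 pairs with a longer jmj703 peak had median lengths of 1366 bp in WT IM and 1485 bp in jmj703 IM and a median log2 density ratio of 0.59, against 0.36 at the other pairs. The median RPM ratio was 1.63-fold at these pairs and 0.988-fold at the rest. A jmj703 H3K27me3 peak overlapped 19.0% of them against 13.3% of the rest, and a WT IM one 14.1% against 12.2%. Overlap with either peak of the pair counted, so a longer jmj703 peak had more span in which to meet one. How much of the excess this made was not tested. WT SAM had no peak at 19.8% against 7.41%. Over all pairs, RPM was at least 2-fold higher at 449 (2.39%) and at least 2-fold lower at 420 (2.24%), so by this measure large changes were about as frequent in both directions.

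The highest ratio of length, jmj703 over WT, among the well-overlapping pairs was on chromosome 7 from 22343585 to 22344551. The peak was 967 bp in WT IM and 1761 bp in jmj703 IM, with 104 and 113 tags, so that the RPM ratio was 4.12. It was 1804 bp long in SDG711 RNAi IM and had no WT SAM peak. Chromosome 1 from 25547554 to 25549011 went from 1458 to 2571 bp, against 2587 bp in SDG711 RNAi IM. An H3K27me3 peak of jmj703 IM met the longer jmj703 peak there, but neither genotype listed one over the WT IM peak itself. Chromosome 3 from 36131957 to 36133289 went from 1333 to 2277 bp and chromosome 1 from 478106 to 479853 from 1748 to 2934 bp, the latter at densities of 16.1 and 16.2. At all 4 the SDG711 RNAi IM peak was also longer than that of WT IM, at 1804, 2587, 2039 and 3140 bp.

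The strongest shortenings in that set stood at the limit of 0.5 that the overlap condition allows. Chromosome 6 from 25145365 to 25147732 went from 2368 to 1184 bp, with 490 tags in WT IM and 63 in jmj703 IM. Density there was nearly equal, at 11.2 and 10.9. Chromosome 10 from 18128511 to 18130520 went from 2010 to 1005 bp, and chromosome 6 from 4390003 to 4392104 from 2102 to 1052 bp. On chromosome 1 from 26773 to 28813 the length went from 2041 to 1021 bp while density rose from 10.3 to 19.7, and the SDG711 RNAi IM peak was short too, at 1148 bp.

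The densest WT IM peaks, named singly here, kept a high rank in jmj703 IM. This did not hold for dense peaks in general. Of the 2184 paired WT IM peaks counted above at the top of their list by density, 1138 (52.1%) were also at the top of the jmj703 IM list. Chromosome 6 from 30993174 to 30995649, the densest, held 1128 tags in WT IM and 358 in jmj703 IM, or 24.7 and 30.4 RPKM, a ratio of 1.23 (1.09 to 1.39). Chromosome 7 from 23050347 to 23056622 was the second densest and the longest, at 6276 bp in WT IM and 4912 bp in jmj703 IM, with densities of 24.1 and 30.6. Chromosome 6 from 24033528 to 24037519 had 23.2 and 24.5. All 3 ratios were below the median of 1.29-fold, and their ranks in jmj703 IM were 99.8, 99.8 and 98.5.

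The exception in ratio was on chromosome 2 from 28715032 to 28717066, with 23.9 in WT IM and 60.7 in jmj703 IM, a ratio of 2.53 (2.28 to 2.81). WT SAM had 39.1 there, the highest density of its list, and SDG711 RNAi IM 22.1. Raw H3K4me3 tags were 899 in WT IM and 616 in jmj703 IM, with 1148 in WT SAM and 818 in SDG711 RNAi IM. These counts followed library depth only loosely, so this ratio needs the same reserve as those at the chromosome starts. The source of the counts was not tested. The H3K27me3 density at the same place was 15.8 in WT IM, with 1117 tags over 3089 bp. In jmj703 IM it was 29.7, with 790 tags over 1857 bp, so part of that difference lies in the shorter called peak. All 4 of these peaks carried H3K27me3 in both genotypes, which was the class with the fewest falls in rank among the densest pairs. The other 3 longest pairs were 6064, 6032 and 5934 bp in WT IM and 5262, 4155 and 2922 bp in jmj703 IM, so that the first changed least. They lay on chromosome 8 from 28263829 to 28269892, chromosome 11 from 12159587 to 12165618 and chromosome 1 from 16850416 to 16856349.

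Long WT IM peaks were also the ones that broke up. The 448 WT IM peaks that met several jmj703 peaks had a median length of 2559.5 bp, and 445 of them met 2 and 3 met 3. Chromosome 11 from 6382144 to 6385838 was 3695 bp long with 941 tags in WT IM and consisted of pieces of 738, 1464 and 1075 bp in jmj703 IM, with 43, 84 and 87 tags. It was a single peak of 3552 bp in WT SAM and 3913 bp in SDG711 RNAi IM. Chromosome 7 from 18688155 to 18691909, of 3755 bp, likewise met pieces of 608, 1159 and 850 bp. Joining was seen at 37 jmj703 peaks. On chromosome 3 from 33104144 to 33107089, for example, a peak of 2946 bp at a density of 22.3 spanned WT IM peaks of 1503 and 1644 bp with densities of 16.2 and 17.0. SDG711 RNAi IM also had a single peak there, of 3804 bp.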

How the data were processed

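The deposited peak lists of 6 ChIP libraries were used. MACS 1.4.0rc2 was run by the authors on each library alone, per the file headers, with no control, a p cutoff of 1e-05, a genome size of 401 Mb, band width 300 bp, tag size 45 bp, shift size d 200 bp and a 10 kb background window. At most 3 tags were kept at a position in WT IM and 2 in jmj703 IM. The submitters' processing notes also name Trimmomatic 0.32, Bowtie2 2.1.0, Cufflinks 2.2.1 and TopHat2 2.0.13 and give no roles. No source used here gives the genome build, so no gene or sequence was assigned, and positions are those of the files, with starts below 1 set to 1 (1 H3K4me3 peak of jmj703 IM).

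Each deposited peak has a raw tag count. The deposited score is −10 times the log10 of the authors' p-value and was used as a filter and to order peaks. The deposited fold enrichment is the authors' ratio over the regional background of the same library and was used to describe and class peaks.

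Groups were taken from the sample titles. Density, length, rank and pairing were computed in Python 3.11.15 with NumPy 2.4.6, pandas 2.3.3 and SciPy 1.17.1, and the pairing was tested on simulated lists. Shares have Wilson intervals, medians order-statistic intervals and single ratios exact conditional binomial intervals, all at 95%. Named peaks were the 5 highest and 5 lowest density ratios, the 4 highest and 4 lowest length ratios (p at most 1e-10 in both lists, at least 50% of each peak shared), the 4 densest and 4 longest WT IM pairs, and unpaired, broken and joined peaks of smallest p or most parts. Pairs and classes were chosen with earlier results of these data known. Alternatives changed the overlap, p cutoff, list size, scaling, length and centring.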

Additional observations from a re-analysis of the deposited data

How the results depend on the processing

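Of 58 alternative values over 9 results and 12 settings, none reversed. Counts within 1.5 times the reported one, and medians that stayed within their 95% interval, make up 31 of these, and the other 27 follow. The median log2 density ratio of 0.37 was 0.0088 with a union length, 0.40 scaled by tags inside peaks, 0.38 at lengths within 25% of each other, 0.37 at p at most 1e-10, 0.36 with the WT IM list cut to the size of the other, 0.35 without H3K27me3 and 0.31 without the weakest WT IM class. The median log2 length ratio of −0.33 was −0.32 with 50% shared overlap, −0.31 at p at most 1e-10, −0.34 without H3K27me3 and −0.32 without the weakest class. The 117 raised pairs were 449 with a union length, 75 at matched lengths, 709 uncentred and 53 without the weakest class. The 5 lowered pairs were 2, 420, 3, 0 and 2 at p at most 1e-10, with a union length, at matched lengths, uncentred and without the weakest class. Rises in rank, 1566, were 858 at matched lengths and 952 without the weakest class, and falls, 2571, were 988 at matched lengths. With rank among the pairs alone, rises were 2140 and falls 2007. WT IM peaks without a partner, 2928, were 1896 with the WT IM list cut. Those of jmj703 IM, 926, were 2504 with 50% shared overlap, 483 at p at most 1e-10 and 1478 with the WT IM list cut. For counts, fewer pairs or peaks enter under the stricter p, matched lengths and the left-out class. For the other moves the cause was not tested. Leaving out the weakest class, or the first 5 kb of chromosomes, was chosen after seeing the data. No paired analysis was possible because each group had 1 library. Leaving out a replicate was not possible for the same reason. Depth differed 3.79-fold and its part in these values cannot be told apart from genotype and preparation.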
